A study of Sus scrofa with 36 samples.

Results

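GBP1, UBD, PLAC8 and CASP1 are 4 immune-response genes that were followed across 36 hippocampi of piglets, out of 6765 genes that the array's annotation names by at least 1 probe set of its own. The genes were selected on measured values of these data, their feeding group and set code levels among the results already known, so their feeding differences and set code levels are given as a description. Where the fit over all probe sets calls one of them, the count stands beside the share of all probe sets called and nothing is read from it. A probe set was assigned to a gene where the annotation gave it that symbol and no other, which gave 6 probe sets: 3 for GBP1 and 1 each for UBD, PLAC8 and CASP1. For GBP1 the probe set with the highest mean over the 36 arrays was used. All 6 passed a filter at log2 4.92 on the mean over arrays, which 18006 of 23999 probe sets passed.

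The animals were male Landrace × Large White piglets that entered the study at 3 days of age and were sampled at postnatal day 38. All drank a pig milk replacer. The 12 control piglets received it as it is, with its basal lactoferrin, for which the labels give no amount. The 12 medium-dose and the 12 high-dose piglets received replacer with lactoferrin at 0.6 and 1.2 g per litre. Lactoferrin is an iron-binding glycoprotein of milk. The labels further assign every sample a code from S1 to S5 without saying what these set codes are; S1 holds 4 samples, S2 10, S3 8, S4 9 and S5 5, and S1 has no medium-dose sample. Each animal is represented by 1 array, and p-values measure the spread between these samples. The values are log2 signals of whole tissue, so fewer cells of a type and less RNA per cell cannot be told apart. Array medians lay between 6.6 and 6.7, and each array's correlations with the rest averaged 0.980 to 0.993.

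Interferons are cytokines that switch on a broad programme of defence genes in most cell types of the brain, microglia, astrocytes and endothelium included. Interferon gamma raises the guanylate-binding proteins and antigen presentation, while type I interferons raise antiviral genes such as ISG15. GBP1 is a large GTPase that assembles on the membranes of vacuoles and on cytosolic bacteria. UBD, also called FAT10, is a ubiquitin-like protein that is induced by interferon gamma and tumour necrosis factor and sends its targets to the proteasome. PLAC8 is a small cysteine-rich protein found in placenta and in several leukocytes. CASP1 is the protease of the inflammasome, which cuts the precursors of interleukin 1 beta and interleukin 18 and the pore-forming protein GSDMD.

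GBP1 spanned 4.9 on the log2 scale between its lowest and highest array on the probe set used. In control piglets its log2 signal was lowest at 6.1, had its median at 7.25 and reached 9.8 (mean 7.83 ± 1.56, SD, n = 12). In the medium-dose group the lowest, median and highest values were 5.0, 6.35 and 8.5 (mean 6.49 ± 0.98, SD, n = 12). In the high-dose group they were 5.8, 6.6 and 9.9 (mean 7.22 ± 1.45, SD, n = 12). The groups overlapped. Of the control samples 5 lay above the highest medium-dose sample, as did 3 high-dose samples, while 4 medium-dose and 2 high-dose samples lay below the lowest control. The fitted difference with the set code as a block was -1.34 (SE 0.42, 95% interval -2.20 to -0.48) for medium dose minus control. For high dose minus control it was -0.45 (SE 0.42), and for high minus medium dose 0.89 (SE 0.42).

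The other GBP1 probe sets followed the same arrays at a smaller amplitude. They ran from 5.6 to 8.2 and from 5.3 to 7.4, and correlated with the main one at r = 0.970 and 0.937 over the 36 arrays, and at 0.949 and 0.896 once group and set code means were removed. Their medium minus control differences on the log2 scale were -0.73 (SE 0.24) and -0.61 (SE 0.20). The only other guanylate-binding protein with a probe set of its own was GBP2, a related interferon-induced GTPase and the neighbour of GBP1 in the RefSeq gene table (Sscrofa11.1). GBP2 had a mean log2 signal of 7.95 ± 0.60 in controls, 7.45 ± 0.24 at the medium dose and 7.75 ± 0.55 at the high dose (SD, n = 12 each). Its medium minus control difference was -0.51 (SE 0.16), with an adjusted p of 0.54 by limma.

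UBD was near the low end of the measurable range in many samples. Its control values had a lowest of 4.8, a median of 5.45 and a highest of 9.2 (mean 6.00 ± 1.37, SD, n = 12). At the medium dose these were 4.7, 5.15 and 6.4 (mean 5.40 ± 0.68, SD, n = 12), and at the high dose 4.6, 5.65 and 8.3 (mean 5.94 ± 1.20, SD, n = 12). The groups overlapped almost throughout, and they differed mainly at the top: 4 control and 3 high-dose samples exceeded the highest medium-dose value. UBD lay below the filter's level of 4.92 in 9 arrays, of which 2 were control, 5 medium-dose and 2 high-dose. The fitted differences on the log2 scale were -0.56 (SE 0.31, 95% interval -1.20 to 0.08) for medium dose minus control, 0.08 (SE 0.31) for high dose minus control and 0.64 (SE 0.31) for high minus medium dose.

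PLAC8 ran from 5.5 over a median of 6.65 to 9.3 in controls (mean 7.18 ± 1.37, SD, n = 12). At the medium dose its lowest, median and highest log2 signals were 5.1, 6.05 and 8.2 (mean 6.28 ± 0.82, SD, n = 12), and at the high dose 5.1, 6.4 and 9.1 (mean 6.83 ± 1.21, SD, n = 12). Again the groups overlapped, with 3 control and 2 high-dose samples above the highest medium-dose sample. The fitted differences were -0.85 (SE 0.38, 95% interval -1.62 to -0.07), -0.22 (SE 0.37) and 0.63 (SE 0.38) for medium minus control, high minus control and high minus medium dose.

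CASP1 spanned 2.0 on the log2 scale. Its lowest, median and highest values were 7.0, 7.4 and 8.7 in controls (mean 7.52 ± 0.51, SD, n = 12), 6.7, 7.05 and 7.6 at the medium dose (mean 7.05 ± 0.27, SD, n = 12) and 6.9, 7.2 and 7.9 at the high dose (mean 7.29 ± 0.37, SD, n = 12). The groups overlapped, with 4 control and 3 high-dose samples above the highest medium-dose sample and 5 medium-dose samples below the lowest control. The fitted difference for medium dose minus control was -0.47 (SE 0.13, 95% interval -0.73 to -0.21). For high dose minus control it was -0.20 (SE 0.13), and for high minus medium dose 0.27 (SE 0.13).

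**Figure D1:**
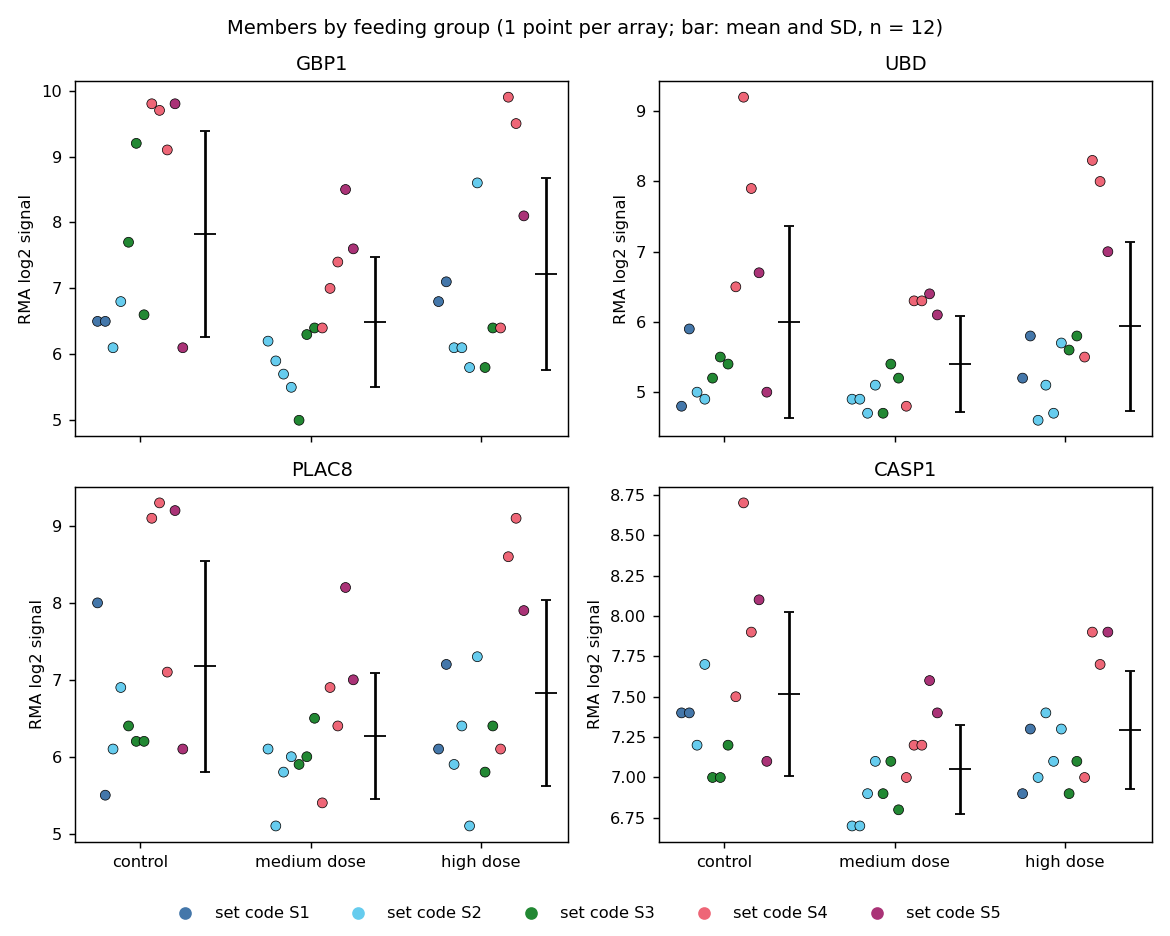
RMA log2 signal (vertical axis) of GBP1, UBD, PLAC8 and CASP1 in the 3 feeding groups, with 1 point per array coloured by set code and a bar for the mean and SD of 12 samples. The medium-dose samples end at 8.5, 6.4, 8.2 and 7.6 in that order of genes, and 3 to 5 control samples lie above each of these values.

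None of the 4 genes passed an adjusted p of 0.05 in limma in any of the 3 contrasts, and no probe set did (0% of 18006 in medium minus control, 0% in high minus control and 0% in high minus medium dose). The smallest adjusted p of all probe sets was 0.153, 0.906 and 0.285 in that order. At an unadjusted p under 0.05, 568 probe sets were lower in medium dose than in control (3.15%) and 680 higher (3.78%). GBP1, PLAC8 and CASP1 were among the lower ones, a count that the choice of the genes fixed and from which nothing is read. In high dose minus control 390 probe sets were lower (2.17%) and 499 higher (2.77%), with none of the 4 genes among them. In high minus medium dose 447 were higher (2.48%), with GBP1, UBD and CASP1 among them, and 629 were lower (3.49%). The contrasts share samples, so they are not independent of each other. The median difference of all probe sets tested was 0.00 in each contrast.

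After the group and set code terms were removed, the genes varied more between arrays than most probe sets. These terms are additive, so feeding differences that varied between set codes remain in the residuals. The residual SD was 1.08 for GBP1, 0.80 for UBD, 0.97 for PLAC8 and 0.32 for CASP1, against a median of 0.17 for all probe sets tested. These are the 99.97th, 99.8th, 99.9th and 92.5th percentiles of the 18006 residual SDs. High values fell on few arrays. Control replicate 9, control replicate 11, high replicate 10 and high replicate 11 were among the 6 highest arrays for all 4 genes. Of these, control replicate 11 has the set code S5 and the other 3 have S4. In control replicate 9 GBP1 was 9.7, UBD 9.2, PLAC8 9.3 and CASP1 8.7, the highest value of the last 3 genes. High replicate 10 had the highest GBP1 value, 9.9.

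Not all high arrays were shared. Control replicate 6 of set code S3 had GBP1 at 9.2 with UBD at 5.5, PLAC8 at 6.2 and CASP1 at 7.0. Control replicate 8 of S4 had GBP1 at 9.8 and PLAC8 at 9.1, while UBD was 6.5 and CASP1 7.5. In control replicate 10 of S4, UBD was 7.9 and CASP1 7.9, whereas PLAC8 was 7.1. Control replicate 6 was thus high for GBP1 alone. The 4 arrays high for every gene all had a log2 signal over 6 for Dap, a polyadenylated RNA that is added as a control, as did 26 of the 36 arrays. Their correlations with the rest averaged 0.991 each, inside the range of the series. In 16 relations of the 4 genes with array quality measures, r lay between -0.21 and 0.09 and no permutation test of r passed (adjusted p = 0.93 for all). By rank, an array's mean correlation with the rest had rho = -0.36 with GBP1, -0.39 with UBD, -0.35 with PLAC8 and -0.28 with CASP1. Their p by permutation were 0.03, 0.02, 0.039 and 0.095, not adjusted. With the other measures rho lay between -0.25 and 0.16.

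All 4 genes had their highest mean in S4 or S5. The choice of the genes may have drawn on this pattern, so it supports nothing beyond the values. The mean GBP1 log2 signal was 6.72 in S1, 6.28 in S2, 6.67 in S3, 8.36 ± 1.52 (SD, n = 9) in S4 and 8.02 ± 1.35 (SD, n = 5) in S5. For UBD the means were 5.42, 4.96, 5.35, 6.98 and 6.24 from S1 to S5. For PLAC8 they were 6.70, 6.07, 6.17, 7.56 and 7.68, and for CASP1 7.25, 7.11, 7.0, 7.57 and 7.62. The set codes overlapped for every gene: GBP1 ran from 6.4 to 9.9 in S4 and from 5.0 to 9.2 in S3.

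**Figure D2:**
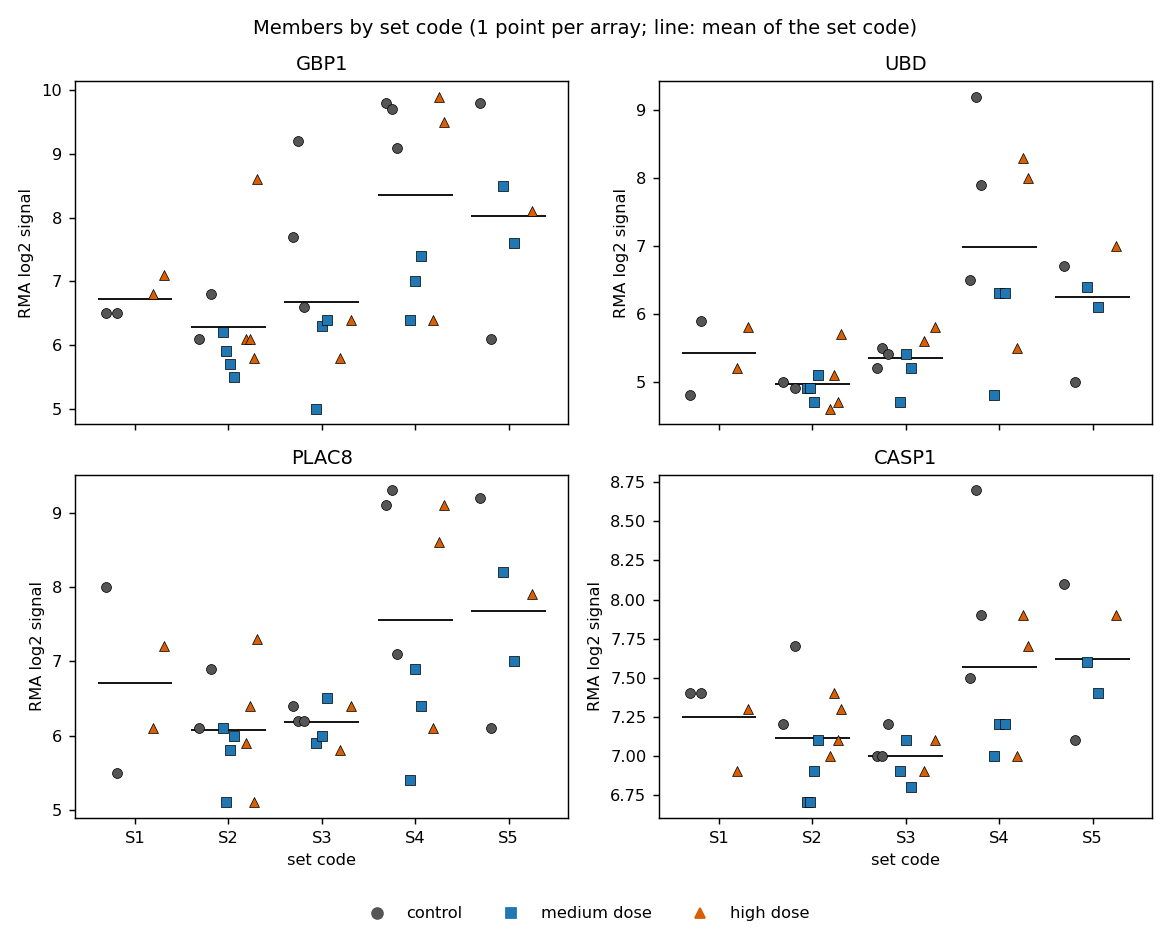
RMA log2 signal (vertical axis) of the 4 genes in set codes S1 to S5 (horizontal axis), with 1 point per array, a symbol per feeding group and a line at the mean of the set code. The lines of S4 and S5 lie above those of S1, S2 and S3 in each panel, and the spread within S4 runs from 6.4 to 9.9 for GBP1.

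With S1 as the reference, S4 was higher by 2.0 for GBP1, 1.75 for UBD, 1.1 for PLAC8 and 0.44 for CASP1 on the log2 scale in the fit with the feeding group. S5 was higher by 1.70, 1.06, 1.25 and 0.50. In an F test of any difference between set codes by limma, 472 of 18006 probe sets passed an adjusted p of 0.05 (2.62%), and 17.4% had an unadjusted p under 0.05. GBP1, UBD and CASP1 were among the 472 and PLAC8 was not, a count from which nothing is read, since the set code levels of the genes were known when they were chosen. In 36 fits without 1 sample each, CASP1 lost this call in 22 and GBP1 in 8, PLAC8 gained it in 3, and UBD changed in 0. The count of 472 fell to 134 without control replicate 1, 207 without control replicate 2, 300 without control replicate 11, 271 without medium replicate 12, 305 without medium replicate 11, 307 without high replicate 7 and 260 without high replicate 11, and it rose to 759 without control replicate 12.

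Within set codes the medium-dose and control samples stood apart most in S4. There the 3 control GBP1 values were 9.1, 9.7 and 9.8, and the 3 medium-dose values were 6.4, 7.0 and 7.4. These 2 groups did not overlap in S4, whereas the high-dose values of 6.4, 9.5 and 9.9 spanned both. From S2 to S5 in order, the medium minus control difference of GBP1 was -0.62, -1.93, -2.60 and 0.10. For UBD it was -0.05, -0.27, -2.07 and 0.40, for PLAC8 -0.75, -0.13, -2.27 and -0.05, and for CASP1 -0.60, -0.13, -0.90 and -0.10. Each of these rests on 2 to 4 samples per group. S5 thus showed no lower medium-dose level for GBP1 and UBD.

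Without the S4 samples the fitted medium minus control differences were -0.88 for GBP1 (SE 0.46), -0.02 for UBD (SE 0.20), -0.33 for PLAC8 (SE 0.36) and -0.32 for CASP1 (SE 0.12). Leaving out another set code gave values from -1.65 to -1.13 for GBP1 and from -0.78 to -0.57 for UBD. An F test of whether medium minus control differed between S2, S3, S4 and S5, added after the data had been seen, was passed by no probe set at an adjusted p of 0.05 by limma (0%), and 7.6% had an unadjusted p under 0.05, the UBD probe set and 1 of the other GBP1 probe sets among them.

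**Figure D3:**
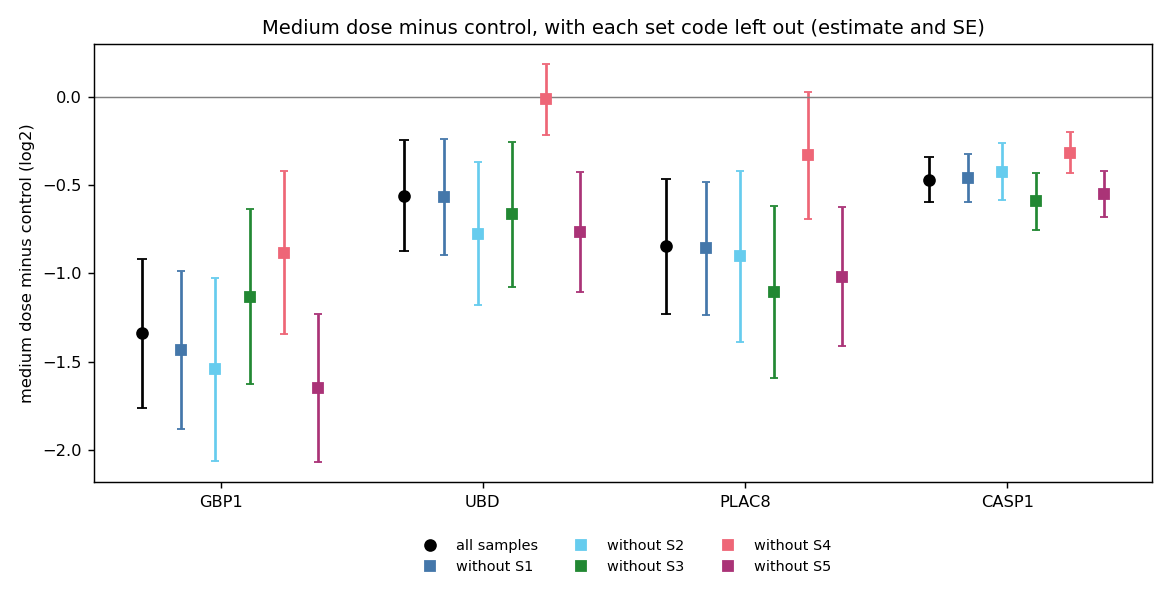
Fitted medium dose minus control difference (log2, vertical axis) of the 4 genes with all samples (black) and without the samples of each set code in turn (coloured), each with its SE. Without S4 the differences are -0.88 for GBP1, -0.02 for UBD, -0.33 for PLAC8 and -0.32 for CASP1, the values nearest to 0 for each gene.

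The 4 genes moved together across arrays. Over the 36 arrays the 6 pairs had r from 0.732 for GBP1 and CASP1 to 0.833 for GBP1 and PLAC8, and Spearman's rho from 0.682 to 0.834. These r include the group and set code levels that were known when the genes were chosen, and they are given with no test. With the 2 arrays farthest from the first gene's median left out, r was 0.689 to 0.80.

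Part of this shared variation lay between groups and set codes. After their means were removed, UBD and CASP1 kept the highest r at 0.810 (adjusted p = 3e-05, permutation), and GBP1 and CASP1 had the lowest at 0.491 (adjusted p = 0.0028, permutation). The last pair had rho = 0.365 (adjusted p = 0.029, permutation) and fell to r = 0.237 once the 2 farthest arrays were left out, so it rests on those arrays. For GBP1 and UBD the residual r was 0.657, for GBP1 and PLAC8 0.71, for UBD and PLAC8 0.614 and for PLAC8 and CASP1 0.665. Removing group and set code means does not undo the selection of the genes on measured values of these data. The p-values of these pairs are therefore a description.

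The pairs had r from 0.566 to 0.844 in controls, 0.781 to 0.879 at the medium dose and 0.806 to 0.940 at the high dose, set code levels included. By set code, r was 0.339 to 0.778 in S2 and 0.760 to 0.942 in S4, but 0.043 to 0.439 in S3. The SD of PLAC8 was 0.26 in S3 against 0.69 in S2, and that of CASP1 0.13 against 0.31. For UBD it was 0.33 in S3 against 0.31 in S2. The reason for the lower r in S3 was not tested. Without the 4 arrays that were high for every gene, a choice made after the data had been seen, r was 0.573 to 0.724 over 32 arrays. Where Dap was present r was 0.719 to 0.858, and where it was absent 0.614 to 0.927.

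**Figure D4:**
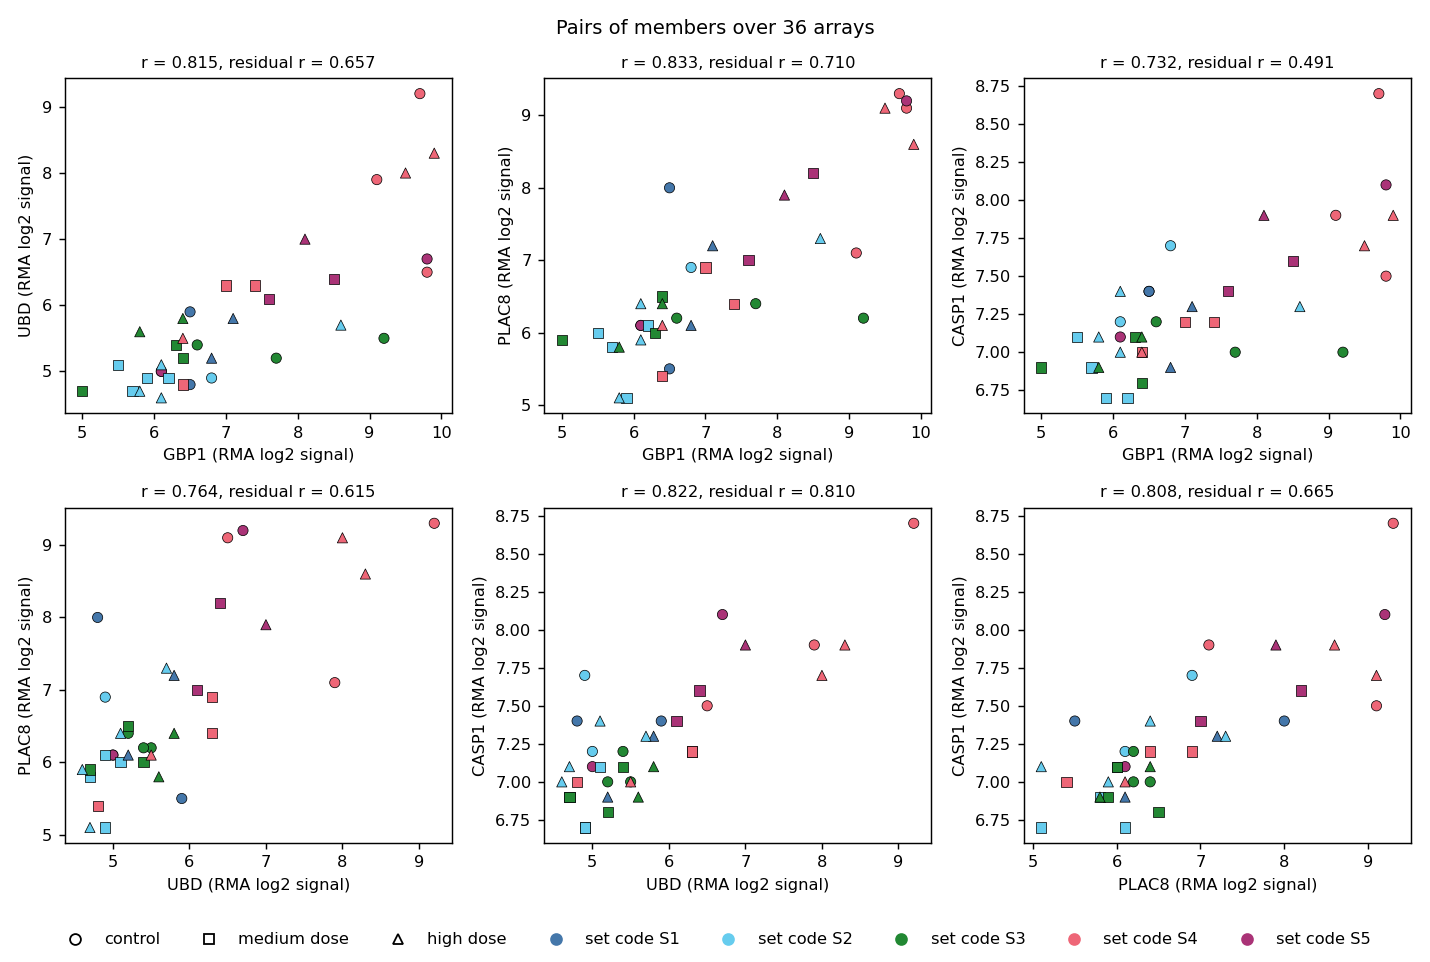
RMA log2 signals of each pair of genes over 36 arrays, with a symbol per feeding group and a colour per set code; titles give Pearson's r and r after group and set code means were removed. Points of S4 and S5 fill the upper right of the panels, and r runs from 0.732 to 0.833.

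The genes whose residuals followed each member most closely differed from member to member. Among 6033 other genes, with 1 probe set each and group and set code means removed, those nearest to GBP1 were IRF1 (r = 0.927), a transcription factor of the interferon gamma response, TNFSF10 (r = 0.912), the death ligand TRAIL, LOC100519098 (r = 0.839), TAP1 (r = 0.832), which carries peptides to class I molecules, and IFIT1 (r = 0.823), an antiviral RNA-binding protein. Over the unadjusted values IRF1 reached r = 0.957 and TNFSF10 0.954. These r describe 36 arrays and share their libraries, and no p is attached to them.

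UBD was followed by antigen-presentation genes. Nearest were SLA-DRA (r = 0.887), a class II chain, B2M (r = 0.842), the light chain of class I molecules, CD74 (r = 0.835), the class II invariant chain, the growth factor MDK (r = 0.819) and SLA-3 (r = 0.818), a class I heavy chain. CASP1 was followed by CTSS (r = 0.872), a lysosomal protease of antigen-presenting cells, and then by UBD itself (r = 0.810), SLA-DRA (r = 0.786), FCGR3A (r = 0.776), an Fc receptor of myeloid and NK cells, and CLIC2 (r = 0.765). PLAC8 was followed by antiviral genes: ISG15 (r = 0.872), a ubiquitin-like modifier, IFI44L (r = 0.863), IFIT3 (r = 0.845), PARP9 (r = 0.835) and LOC100519098 (r = 0.831). Among all genes UBD held place 2 for CASP1, and CASP1 place 9 for UBD. GBP1 held place 38 for UBD and place 178 for CASP1.

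The means of gene lists, without the members, were set against each gene in the same way. GBP1 had its highest residual r with the interferon gamma signalling list (14 genes, 0.897), ahead of class I antigen presentation (15 genes, 0.811) and the antiviral interferon-stimulated list (16 genes, 0.779). UBD had 0.895 with class II antigen presentation (11 genes) and 0.894 with class I, against 0.585 with the antiviral list. CASP1 had 0.826 with class II, 0.780 with class I and 0.591 with the antiviral list. PLAC8 had 0.868 with the antiviral list, 0.832 with interferon gamma signalling and 0.707 with class II. The largest adjusted p among these was 0.00088, in permutation tests adjusted over 68 relations (17 lists and 4 genes). Members and lists were chosen with earlier results of these data known. The p-values of these relations, those with the marker lists below included, are therefore a description. Without the 2 arrays farthest from the median of the list mean, the r with the antiviral list fell to 0.379 for UBD and 0.356 for CASP1, and stayed at 0.825 for PLAC8. Differences between these r were not tested. The genes of the interferon gamma signalling list followed GBP1 unevenly. IRF1 (residual r = 0.927), IRF9 (0.72), SOCS1 (0.607) and IRF2 (0.602) were highest, and the others lay between -0.13 (JAK1) and 0.47 (STAT2). The receptor chain IFNGR1 had 0.30 and JAK2 0.33. With the inflammasome and pyroptosis list the 4 genes had r = 0.456 (GBP1), 0.627 (UBD), 0.506 (PLAC8) and 0.639 (CASP1), with the NF-kappa B and TNF list 0.546, 0.688, 0.465 and 0.614, and with the FAT10 and ubiquitin-like list 0.711, 0.558, 0.843 and 0.539, all past an adjusted p of 0.05 by permutation. The FAT10 and ubiquitin-like list includes ISG15 and USP18, which are also antiviral list genes and had a residual r of 0.872 and 0.819 with PLAC8. Its other 5 genes lay between -0.21 (HDAC6) and 0.17 (NUB1) with PLAC8. Without the 2 farthest arrays the NF-kappa B and TNF values of PLAC8 and CASP1 fell to 0.288 and 0.285. Genes of both lists followed CASP1 unevenly. In the inflammasome list IL18 (0.563), TXNIP (0.540) and SERPINB1 (0.449) were highest, and the others lay between -0.04 (IL1R1) and 0.28 (IL18BP). IL1B had 0.08 and GSDMD 0.11. In the NF-kappa B and TNF list the residual r ran from -0.39 (SOD2) to 0.75 (CCL2), with TNF at 0.08.

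Microglia are the resident macrophages of the brain. The mean of 9 microglia markers had a residual r of 0.143 with GBP1 and 0.114 with PLAC8, and neither passed (adjusted p = 0.50 and 0.59, permutation). With UBD it was 0.518 (adjusted p = 0.0046) and with CASP1 0.552 (adjusted p = 0.0028, both permutation), and without the 2 farthest arrays it fell to 0.320 and 0.329. The list mean lay between 7.50 and 8.50 in controls, 7.44 and 8.16 at the medium dose and 7.59 and 7.94 at the high dose, and all 9 markers had a medium minus control difference below 0. AIF1, a microglial calcium-binding protein, had a difference of -0.17 (SE 0.10). At an unadjusted p under 0.05, 2 of the 9 markers were lower in medium minus control, against 3.15% of all probe sets, and 4 in high minus control, against 2.17%, none with an adjusted p under 0.05. The 2 markers, named after their values were seen, were P2RY12, a microglial purinergic receptor (-0.27, SE 0.11), and C1QC, a chain of complement C1q (-0.26, SE 0.12). Oligodendrocyte and astrocyte markers mostly lay below 0 as well, while neuron and endothelial markers mostly did not. All 7 oligodendrocyte markers had a medium minus control difference below 0, with a median of -0.23 against -0.17 for microglia, and so had 6 of 7 astrocyte markers, with a median of -0.06. In each of these 2 lists 1 marker was lower at the unadjusted threshold, the myelin enzyme CNP (-0.58, SE 0.21) and the gap junction protein GJA1 (-0.22, SE 0.08), both named after their values were seen. Of the neuron markers 1 of 6 had a difference below 0 (median 0.04), and of the endothelial markers 4 of 10 (median 0.04). The part of microglia in the CASP1 and UBD levels was not tested.

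Markers of other cell types were followed in the same way. A list of 7 T and NK cell markers had a residual r of 0.522 with UBD, 0.477 with PLAC8 and 0.402 with CASP1 (adjusted p = 0.0044, 0.0063 and 0.035, permutation), while rho passed for PLAC8 only (adjusted p = 0.036). Without the 2 farthest arrays these r were 0.328, 0.416 and 0.214. The markers were uneven, from CD247 (residual r = -0.154 with UBD, -0.120 with PLAC8 and -0.132 with CASP1) to CD8B (0.618, 0.630 and 0.491). CD3D had 0.146, 0.175 and 0.117. The T cell receptor chain CD3E had a mean of 4.80, below the filter's level. The mean of 3 B cell and plasma cell markers had a residual r of 0.682 with UBD and 0.712 with CASP1 (adjusted p = 6.8e-05 and 4e-05, permutation), and of 0.436 and 0.552 without the 2 farthest arrays. BLNK, a signalling adaptor named after its values were seen, had the highest r of the 3, 0.663 and 0.741. JCHAIN had 0.474 and 0.464, and TNFRSF17 0.22 and 0.16. Their mean signals of 5.20 and 5.03 were near the filter's level. The astrocyte list of 7 genes had a negative r, -0.396 with UBD and -0.418 with CASP1 (adjusted p = 0.031 and 0.020, permutation), for which rho did not pass. The neutrophil and monocyte, endothelial, erythrocyte, choroid plexus, oligodendrocyte and neuron lists did not pass with any of the 4 genes by r; by rho the neuron list passed with UBD alone (r = -0.241, adjusted p of rho = 0.032, permutation). The part of these cell types was not tested.

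**Figure D5:**
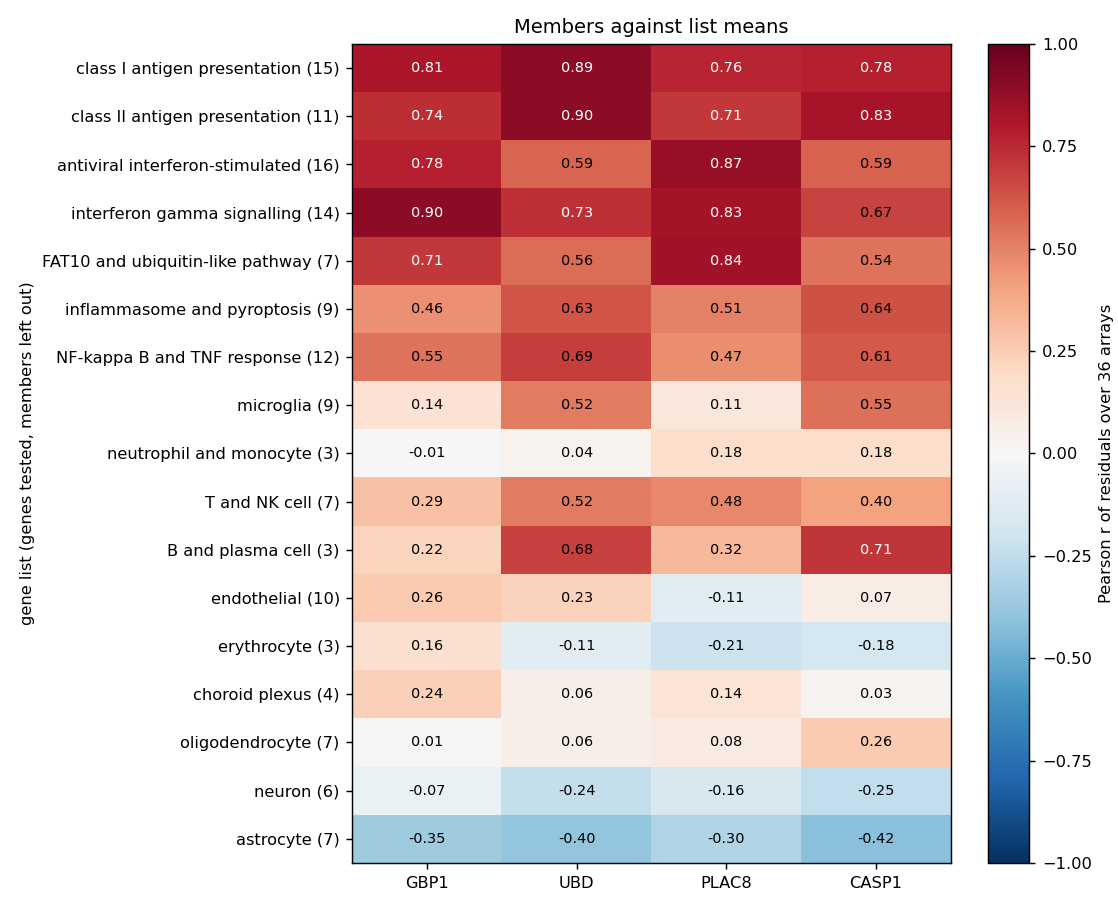
Pearson's r over 36 arrays between the residuals of each of the 4 genes (columns) and the mean of each gene list (rows, with the number of genes tested), after group and set code means were removed. The highest cells are 0.90 for GBP1 with interferon gamma signalling and for UBD with class II antigen presentation, and the microglia row holds 0.14, 0.52, 0.11 and 0.55.

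The other genes of these pathways are given by count, for medium minus control, against 3.15% of all probe sets lower and 3.78% higher at an unadjusted p under 0.05. None passed an adjusted p of 0.05 in any list. The lists were chosen with earlier results known, and genes of a list are not independent of each other. The antiviral genes, for instance, had residual r from 0.35 (OAS1) to 0.87 (ISG15) with PLAC8. The counts are therefore a description. In the antiviral list 11 of 16 genes were lower at the unadjusted threshold, all 16 had a difference below 0, and the median was -0.45. IFI44L was at -0.76 (SE 0.24) and XAF1, an inhibitor of antiapoptotic proteins, at -0.55 (SE 0.18). In the class I list 7 of 15 were lower, all 15 had a difference below 0, and the median was -0.21. The proteasome activator subunits PSME1 and PSME2 were at -0.29 (SE 0.08) and -0.36 (SE 0.10). In the class II list 1 of 11 was lower, CTSS at -0.46 (SE 0.17), and SLA-DRA was at -0.55 (SE 0.28), with a list median of -0.17.

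The lists closest to the biochemistry of CASP1 and UBD were counted in the same way. Among 9 other inflammasome and pyroptosis genes 2 were lower at the unadjusted threshold, with a list median of -0.07: the apoptotic protease CASP8 at -0.28 (SE 0.10) and TXNIP, a regulator of thioredoxin, at -0.27 (SE 0.11). CASP8 had a mean log2 signal of 4.93 over the arrays, near the filter's level of 4.92. The list names 38 genes, of which 12 had a probe set of their own and 10, CASP1 included, passed the filter. The CASP1 substrates had differences near 0, with IL1B at -0.01 (SE 0.08), IL18 at 0.02 (SE 0.14) and GSDMD at -0.07 (SE 0.05). Of the 7 other genes of the FAT10 and ubiquitin-like pathway 2 were lower, ISG15 at -0.92 (SE 0.32) and the protease that removes it, USP18, at -0.64 (SE 0.29). NUB1, which binds UBD, was at -0.04 (SE 0.05). Of 14 interferon gamma signalling genes 2 were lower and 1 higher, with IRF1 at -0.45 (SE 0.20) and IRF8, a transcription factor of myeloid cells, at -0.19 (SE 0.08). No gene of 12 in the NF-kappa B and TNF list was lower at that threshold. TNFRSF1A, the main receptor for tumour necrosis factor, was at -0.14 (SE 0.07), and TLR2, a receptor for bacterial lipoproteins, at -0.22 (SE 0.13).

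In high minus control these lists held few calls: 1 of 15 class I genes was lower at the unadjusted threshold, against 2.17% of all probe sets, and none in the class II, antiviral, interferon gamma, FAT10, inflammasome and NF-kappa B lists. The set code F test was passed at an adjusted p of 0.05 by 12 of 16 antiviral genes, 8 of 15 class I genes, 3 of 7 FAT10 pathway genes and 2 of 11 class II genes, against 2.62% of all probe sets. It was passed by 1 of 14 interferon gamma genes, 1 of 9 inflammasome genes and none of 12 NF-kappa B or 9 microglia genes. Genes of a list are not independent of each other here either, and these counts are a description.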

How the data were processed

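RNA of 36 hippocampus samples was measured on Affymetrix porcine genome arrays. The authors deposited log2 values per probe set, rounded to 1 decimal, made by RMA (background correction, normalisation across arrays, summary of probes); the submitters' processing notes name Affymetrix Expression Console 1.1. Precision is limited by the number of arrays. The platform annotation of 2016 gave 1 symbol to 10069 of 23999 probe sets besides 124 array controls, several to 198 and none to 13732; 9961 were matched to RefSeq.

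Probe sets with a mean at or above the 25th percentile (18006) were fitted in R 4.3.3 with limma 3.58.1, with feeding group and set code as fixed terms, moderated two-sided tests and Benjamini-Hochberg adjustment. Relations were tested in Python 3.11.15 with 100000 permutations, two-sided. Residuals are values less the additive fit of group and set code, so feeding differences that varied between set codes remain in them. Scripts were tested on simulated data.

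The members and lists were chosen with earlier results of these data known. Named are the members, the 5 genes most like each by residual r, in each pathway list the genes past adjusted p 0.05 or otherwise the 2 with the smallest unadjusted p in medium minus control, and a few pathway and marker genes wherever measured. Alternatives covered the block, the groups fitted, set codes and samples left out, normalisation, array weights, filter and probe set choice. The interaction test and the relations without the 4 highest arrays were added after the data had been seen. The RefSeq gene table (Sscrofa11.1) was used for names and neighbouring genes only, and no sequence or coordinate is given.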

Additional observations from a re-analysis of the deposited data

Results flagged for a closer look

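GBP1 in high replicate 6 had a log2 signal of 8.6, while the other 3 high-dose samples of set code S2 lay between 5.8 and 6.1. Its gap to the nearest of them was 0.893 of the range of the 4 samples, which is beyond the limit for a sample far from the others in a group of this size. Of 8 groups of 4 to 10 samples tested for the 4 genes, this was the only one marked, and chance marks about 1 in 20. In that array PLAC8 was 7.3, UBD 5.7 and CASP1 7.3, and the Dap spike-in control was absent.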

How the results depend on the processing

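The feeding differences of GBP1, PLAC8 and CASP1 kept their sign in the 14 other settings and the 36 fits without 1 sample. UBD changed sign only in high minus control, in 5 of 14 settings and 2 of 36 fits. Sizes moved more: without 1 sample each, high minus control ran from -0.68 to -0.23 for GBP1, -0.40 to -0.05 for PLAC8 and -0.27 to -0.10 for CASP1, and medium minus control from -0.73 to -0.34 for UBD. The correlations of the 6 pairs stayed above 0 in 8 other settings and 36 leave-outs, from 0.491 to 0.940. Over all probe sets tested the replicate numbers showed no pairing of the samples. Same-numbered samples had a mean correlation of -0.005, against 0.002 for others, and 2 of 36 correlated best with their own number. With a replicate block and no set code term, medium minus control was -1.33 for GBP1, -0.60 for UBD, -0.90 for PLAC8 and -0.47 for CASP1. The SEs were 0.36, 0.29, 0.36 and 0.12 in that order, against 0.42, 0.31, 0.38 and 0.13 with the set code block. With both terms medium minus control was -1.42, -0.60, -0.83 and -0.43, and 1785 probe sets had an unadjusted p under 0.05 in high minus medium, against 1076. Fitting only the 2 groups compared gave 11 probe sets past adjusted p 0.05 and 1902 at unadjusted p under 0.05 in medium minus control, against 0 and 1248. Array weights gave 1 and 1672 in high minus medium, 841 in the set code F test and 0.0200 for PLAC8 there. Without a filter 1351 probe sets had an unadjusted p under 0.05 in high minus control, against 889; at the 50th percentile, with fewer probe sets tested, 469, and 715 in high minus medium. With no feeding group in the model the set code F test gave 0.0553 for GBP1 and 0.0889 for CASP1 (adjusted p, limma). Causes were not tested. For the members these p-values show only how the fit depends on the setting. Without 1 sample each, the F test gave 0.00352 to 0.0704 for GBP1, 0.00158 to 0.0256 for UBD, 0.0128 to 0.123 for PLAC8 and 0.00463 to 0.0782 for CASP1, and 134 to 759 probe sets; unadjusted counts ran from 931 to 1877 in medium minus control (highest without high replicate 2) and 708 to 1915 in high minus medium (without high replicate 7 and medium replicate 1), and adjusted counts from 0 to 1 in both (without medium replicate 12 and medium replicate 11). UBD lay near the low end of the signal range, which limits its differences.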
